A study of Homo sapiens with 36 samples.

Results

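The genes described here are 39 genes of the DNA damage response and of DNA repair. They were chosen by symbol and matched through GENCODE v44 to 39 of the 58302 Ensembl gene IDs in the deposited count tables. By role they are 8 damage kinases and sensors, 5 factors of the chromatin response at breaks, 13 genes of homologous recombination, 7 of end joining, 4 of the Fanconi anaemia pathway and 2 of mismatch repair. The samples came from 3 established lines of human mantle cell lymphoma (JEKO, MINO and UPN-1), all grown in RPMI-1640 medium with serum. Cells received GS716054, a compound that inhibits KDM5 histone demethylases, or DMSO as the vehicle, and RNA was taken 24 h or 72 h after treatment for bulk RNA sequencing. The 12 groups of line, treatment and time held 3 libraries each, labelled as biological replicates, and the labels used here give no dose. Each gene was compared between GS716054 and DMSO within a line and time, and the DMSO cultures were compared between lines and between times.

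Double-strand breaks are bound by the complex of MRE11, RAD50 and NBN, which activates the kinase ATM, whereas the kinase ATR with its partner ATRIP responds to single-stranded DNA at stalled replication forks. The signal passes to the checkpoint kinases CHEK2 and CHEK1, and phosphorylated H2AX with its reader MDC1 brings the ubiquitin ligases RNF8 and RNF168 and the end-protecting factor TP53BP1 to the break. Homologous recombination copies the sister chromatid and works mainly in S and G2 phase, so many of its genes are transcribed with the replication genes of cycling cells. End joining seals ends in any phase and also completes immunoglobulin gene rearrangement in B cells. Fanconi anaemia proteins act at crosslinked DNA, and mismatch repair corrects errors of replication.

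A library held 8784815 to 14970876 reads in genes. Levels below are counts per 1000000 gene reads (CPM) on TMM-scaled library sizes, given for replicates 1, 2 and 3 in that order. In this unit, 3 reads were worth 0.196 CPM in the deepest library and 0.353 CPM in the shallowest. All 7 markers of B cells and mantle cell lymphoma were present in every library, CCND1 and SOX11 among them, at a summed 2650 to 8183 CPM. T-cell markers summed to 0.366 to 32.0 CPM, the highest in MINO, where CD8A alone reached 29.0 CPM. Monocyte markers summed to at most 6.59 CPM, fibroblast markers to 4.01, epithelial markers to 16.0 and endothelial markers to 27.7, while granulocyte and erythroid markers each stayed at or under 0.688 CPM. Some 72 h libraries stood apart in genes of the cell cycle. In JEKO at 72 h the summed level of 20 mitosis genes was 1176, 2551 and 2336 CPM in DMSO and 852, 2123 and 2460.5 CPM with GS716054, so replicate 1 was the lowest of both groups. In MINO at 72 h the summed level of 27 S phase genes was 4060.2, 2602 and 4304 CPM in DMSO and 4016, 1702 and 4178 CPM with GS716054, so replicate 2 was the lowest of both groups. The summed level of the 39 repair genes in MINO at 72 h was also lowest in replicate 2 of both groups. It was at 3787, 2823 and 3971 CPM in DMSO and 3536, 2379.6 and 3486 CPM with GS716054. In bulk RNA, fewer cells in a phase and less RNA per cell cannot be told apart.

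When libraries were compared as replicate pairs, 15 of 38 repair genes were lower with GS716054 after 24 h in MINO and 9 after 72 h. In JEKO 5 and in UPN-1 4 were lower after 72 h, and 0 rose. Of all genes, the same fits called 7.36% and 9.8% lower in MINO at 24 h and 72 h. At 72 h they called 1.44% lower in JEKO and 3.29% in UPN-1. Leaving out replicate 1, 2 or 3 gave 3, 15 or 5 members in MINO at 24 h, where these fits called 810 to 2724 genes in all. Of the member calls as pairs, 1 (MDC1 in MINO at 72 h) was also called in the unpaired edgeR fit of each line's 12 libraries. Other unpaired fits differed in MINO. A fit of the 6 libraries compared called 13 of the 15 at 24 h and 0 members at 72 h. DESeq2 called MSH6 at 24 h and MDC1, POLQ and RAD50 at 72 h. The threshold for a call was an adjusted p under 0.05 (Benjamini-Hochberg, over every gene of the fit) in edgeR's quasi-likelihood test. Of the 39 genes, 38 passed the filter on low counts in every fit. ATRIP did not, with 0.0894, 0 and 0.083 CPM in the JEKO DMSO libraries at 24 h. Same-numbered DMSO and GS716054 libraries deviated together from their group means at 72 h, with correlations of 0.287 to 0.593. At 24 h the correlations were weaker, from 0.0552 (JEKO) to 0.269 (MINO). Libraries of different times with the same number gave -0.142 to 0.303. Results are therefore also given with the replicate number as a block within each line and time, which compares the libraries as pairs. This block was added after the correlations were seen.

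Without the block, JEKO had 0 of 38 members called at 24 h, where 0.018% of 16690 genes were called, and 0 at 72 h, where 0.3% were. MINO had 0 at 24 h (2.39% of 15028 genes) and 1 at 72 h (5.56%, or 2.05% lower). UPN-1 had 0 at 24 h (0.0262% of 15248 genes) and 0 at 72 h (0.334%). At an unadjusted p under 0.05 these 6 edgeR comparisons gave 0, 1, 5, 5, 0 and 0 members in the same order. Over all genes they gave 662, 1438, 2666, 3333, 577 and 1130. The DESeq2 test, at the adjusted threshold, called 0, 0, 1, 3, 0 and 0 members. With the block, JEKO had 0 at 24 h (0.0899% of genes called) and 5 at 72 h (3.34%, or 1.44% lower). MINO had 15 at 24 h (15.8%, or 7.36% lower) and 9 at 72 h (20.2%, or 9.8% lower), and UPN-1 had 0 at 24 h (1.5%) and 4 at 72 h (7.47%, or 3.29% lower). Every one of these member calls was a lower level. With the block, FANCD2 was called in 4 comparisons, and BRCA1, EXO1 and MDC1 in 3 each. When 1 replicate was left out, the FANCD2 call was kept in 1 of 3 fits in MINO at 24 h and 2 of 3 at 72 h. It was kept in 0 of 3 in JEKO and in UPN-1 at 72 h. The MDC1 call was kept in 1 of 3 in MINO at 24 h, 3 of 3 in MINO at 72 h and 0 of 3 in JEKO at 72 h. The comparisons of a line at different times use different libraries, and those of different lines share none.

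**Figure D1:**
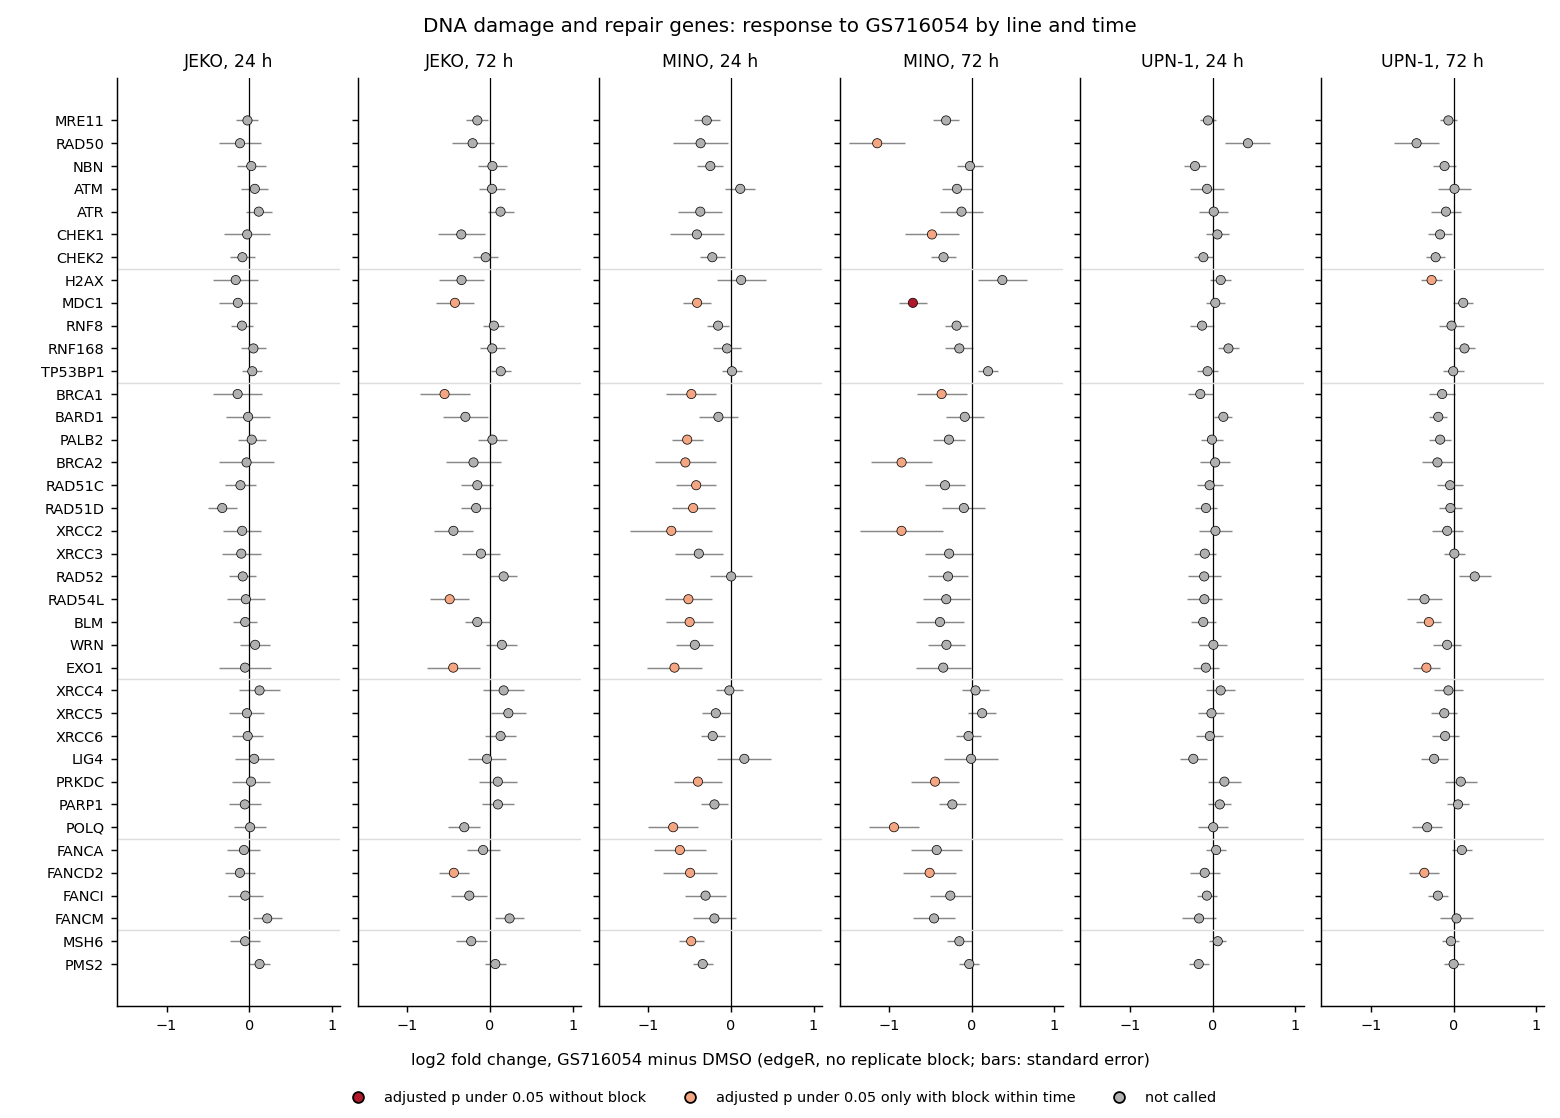
Log2 fold change of each of 38 members (rows, grouped by role) between GS716054 and DMSO in 6 panels, 1 per line and time; points are edgeR estimates without a block, bars are standard errors, and colour gives the call. In MINO most points lie left of 0 and 15 members at 24 h and 9 at 72 h are called with the block, whereas the JEKO and UPN-1 points at 24 h lie around 0 with 0 called.

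The promoters of MDC1 and FANCD2 are shown because these genes were called in 3 or more comparisons and their windows hold a motif that was searched for. Each is the 250 bases before the RefSeq transcription start, 5′ to 3′ on the gene's strand, from RefSeq on GRCh38.p14, with matches in capitals. The FANCD2 window, chr3:10026187-10026436 on the + strand, holds ACTTCCGG, the reverse complement of the ETS motif CCGGAAGT, from 70 to 63 bases before the start. The MDC1 window, chr6:30717282-30717531 on the - strand, holds a CCAAT box at 219 to 215 and at 54 to 50 bases before the start, and TTTGAA, the core of the cell cycle homology region, at 130 to 125.
FANCD2: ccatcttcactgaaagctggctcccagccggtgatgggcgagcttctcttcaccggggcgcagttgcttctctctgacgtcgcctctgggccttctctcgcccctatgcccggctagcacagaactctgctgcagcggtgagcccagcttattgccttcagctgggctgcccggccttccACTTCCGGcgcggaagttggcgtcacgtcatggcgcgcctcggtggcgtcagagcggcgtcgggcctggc
MDC1: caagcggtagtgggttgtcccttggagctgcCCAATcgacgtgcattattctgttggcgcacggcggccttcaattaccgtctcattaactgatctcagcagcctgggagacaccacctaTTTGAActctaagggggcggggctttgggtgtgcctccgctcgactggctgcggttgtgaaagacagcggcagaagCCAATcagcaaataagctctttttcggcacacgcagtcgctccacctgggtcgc

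RefSeq windows were found for 34 of the 39 members. The ETS motif CCGGAAGT, on either strand, was in 8 of the 34 windows (23.5%) and in 3.64% of 27305 windows of all genes. Of the 17 windows of members called lower with the block, 5 held it, and of the 17 others 3 did. CCAAT was in 18 member windows (52.9%) against 33.0% of all, with 8 of the 17 called and 10 of the 17 others. TTTGAA was in 4 (11.8%) against 13.6% of all, of which 3 belonged to called members. The E2F motifs TTTCCCGC and TTTGGCGC were in 0 member windows and 1.96% of all, and the NRF1 motif in 0 and 0.641%. None of these motifs contains another. A match is a run of letters only, and binding was not measured.

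In MINO at 24 h, 33 of the 38 members were lower with GS716054 than with DMSO. The median log2 fold change of the members was -0.37, against 0.0051 over all genes. In 21 members every GS716054 library lay below every DMSO library, where 15.2% of all genes did so, and in 0 members every GS716054 library lay above, where 19.9% of all genes did. Homologous recombination held 9 of the 15 members called with the block, out of 13 tested, and its median was -0.48 without the block. The other calls were 2 of 4 Fanconi anaemia genes, 2 of 7 end joining genes, 1 of 5 chromatin factors and 1 of 2 mismatch repair genes. Of the 7 damage kinases and sensors tested, 0 were called, and their median was -0.29.

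Among the recombination genes, BRCA1, the ubiquitin ligase subunit that promotes end resection, was at 68.6, 57.5 and 72.1 CPM in DMSO and 57.3, 37.3 and 50.4 CPM with GS716054. The groups did not overlap, and the log2 fold change was -0.50 (edgeR adjusted p 0.00836, SE 0.11) with the block and -0.48 (edgeR adjusted p 0.441, SE 0.30) without it. BRCA2, a mediator of recombination, was at 34.4, 33.9 and 27.7 CPM in DMSO and 24.2, 19.9 and 22.7 CPM with GS716054, again without overlap, with a log2 fold change of -0.55 (edgeR adjusted p 0.0165, SE 0.14) with the block. PALB2, which links BRCA1 to BRCA2, was at 25.4, 25.4 and 26.2 CPM in DMSO and 17.1, 16.0 and 21.3 CPM with GS716054. All 3 treated libraries lay below all DMSO libraries, and the change was -0.54 (edgeR adjusted p 0.0175, SE 0.14) with the block. RAD54L, a DNA motor protein of recombination, was at 53.3, 51.2 and 54.1 CPM in DMSO and 45.0, 30.2 and 38.0 CPM with GS716054, with a change of -0.53 (edgeR adjusted p 0.0157, SE 0.13) with the block. BLM, the helicase mutated in Bloom syndrome, was at 53.6, 40.5 and 52.6 CPM in DMSO and 41.2, 27.7 and 36.8 CPM with GS716054. Its groups overlapped at DMSO replicate 2, each pair was lower with GS716054, and the change was -0.51 (edgeR adjusted p 0.0126, SE 0.12) with the block.

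POLQ, the polymerase of microhomology-mediated end joining, was at 22.2, 26.3 and 16.8 CPM in DMSO and 16.5, 11.2 and 13.3 CPM with GS716054. The groups were separate by a narrow margin, 16.8 against 16.5 CPM, and the log2 fold change was -0.69 (edgeR adjusted p 0.0168, SE 0.18) with the block. FANCA, a subunit of the Fanconi anaemia core ligase, was at 40.8, 53.8 and 39.3 CPM in DMSO and 32.2, 26.4 and 30.5 CPM with GS716054, so the pair of replicate 2 differed most, and the change was -0.61 (edgeR adjusted p 0.0114, SE 0.14). MSH6, a mismatch recognition protein, was at 201, 171 and 211 CPM in DMSO and 161, 114 and 152 CPM with GS716054. No libraries of the groups overlapped, and MSH6 had the smallest block p of the members, with a change of -0.49 (edgeR adjusted p 0.00667, SE 0.10). The other 7 members called with the block were EXO1, XRCC2, FANCD2, RAD51D, RAD51C, MDC1 and PRKDC, with log2 fold changes from -0.76 (XRCC2) to -0.41 (PRKDC) and edgeR adjusted p from 0.0189 (MDC1) to 0.0427 (XRCC2). Without the block, adjusted p of the 15 ran from 0.124 (MSH6) to 0.51 (PRKDC). Of the 15, FANCA alone was called in all 3 fits with the block that left out a replicate. MSH6 was called in 1 of these fits and RAD51D in 0.

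The MINO count at 24 h moved with the libraries and the fit. With the block, 3 members (BRCA1, FANCA and RAD54L) were called without replicate 1, 15 without replicate 2 and 5 without replicate 3. Over all genes these fits called 810 to 2724. A fit of the 6 libraries compared, without a block, called 15 members lower, 13 of them among the 15 of the block, with WRN and XRCC3 in place of PRKDC and XRCC2. The S phase genes moved with these members. In MINO at 24 h, 17 of 27 were called lower with the block at a median of -0.49, and their summed level was 5719, 4674 and 6052 CPM in DMSO and 4727, 3223 and 4605 CPM with GS716054. Of the 20 mitosis genes, 1 was called lower. The share of mitochondrial reads was 6.21%, 4.98% and 4.94% in DMSO and 7.03%, 6.39% and 5.11% with GS716054, higher in each pair. The part of these genes and of this share in the repair gene result was not tested.

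**Figure D2:**
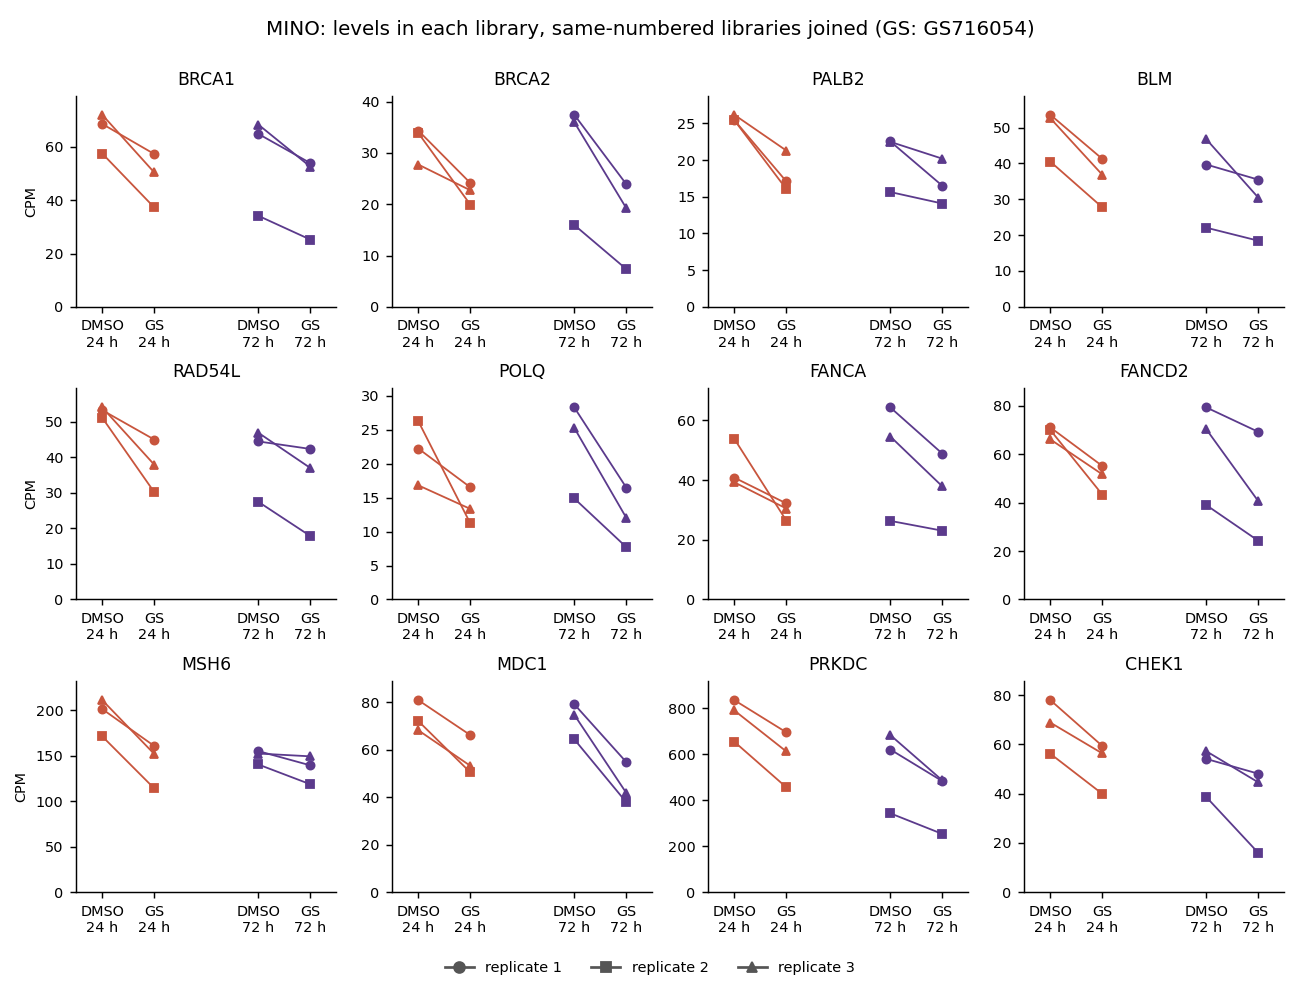
CPM of 12 members in each MINO library at 24 h and 72 h, with lines joining the DMSO and GS716054 libraries of the same replicate number; each y axis starts at 0. BRCA2 falls in each pair, from 34.4 to 24.2, 33.9 to 19.9 and 27.7 to 22.7 CPM at 24 h, and replicate 2 is low in both groups at 72 h, as in BRCA2 at 16.0 and 7.35 CPM.

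In MINO at 72 h, MDC1 was the only member called without a block. MDC1, the scaffold that reads phosphorylated H2AX, was at 79.1, 64.4 and 74.7 CPM in DMSO and 54.8, 37.9 and 41.8 CPM with GS716054. The groups did not overlap, and the log2 fold change was -0.71 (edgeR adjusted p 0.0276, SE 0.17), or -0.72 (edgeR adjusted p 0.000593, SE 0.11) with the block. Without the block the call was kept in 2 of 6 fits that left out 1 library, with edgeR adjusted p from 0.0136 to 0.103. It was lost without DMSO replicate 1 or 3 and without GS716054 replicate 2 or 3. In DMSO at 24 h the same line held 80.9, 72.1 and 68.2 CPM. In all, 34 of 38 members were lower at 72 h, at a median of -0.28 against -0.027 over all genes, and 3 members (MDC1, RAD50 and RNF8) showed no overlap with every treated library below, where 10% of all genes did.

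The other calls of MINO at 72 h came with the block. BRCA2 was at 37.5, 16.0 and 36 CPM in DMSO and 23.9, 7.35 and 19.2 CPM with GS716054, so both groups overlapped through the low replicate 2, each pair was lower with GS716054, and the log2 fold change was -0.88 (edgeR adjusted p 0.00096, SE 0.14). XRCC2, a recombination factor, was at 34.5, 9.85 and 30.1 CPM in DMSO and 20.8, 4.99 and 16.3 CPM with GS716054, with a change of -0.86 (edgeR adjusted p 0.0205, SE 0.24). POLQ was at 28.3, 14.9 and 25.3 CPM in DMSO and 16.5, 7.72 and 12 CPM with GS716054, with a change of -0.94 (edgeR adjusted p 0.00248, SE 0.18). In each of the 3 genes, replicate 2 was the lowest library of both groups. FANCD2, the Fanconi anaemia protein that is monoubiquitinated at crosslinks, was at 79.4, 39 and 70.3 CPM in DMSO and 69.3, 24.2 and 40.6 CPM with GS716054, with a change of -0.56 (edgeR adjusted p 0.00914, SE 0.13). CHEK1, the checkpoint kinase below ATR, was at 54.1, 38.6 and 57.2 CPM in DMSO and 48.1, 15.9 and 44.5 CPM with GS716054. Its pair of replicate 2 differed most, and the change was -0.58 (edgeR adjusted p 0.0244, SE 0.17). PRKDC, the catalytic kinase of classical end joining, was at 621, 343 and 683 CPM in DMSO and 483, 253 and 486 CPM with GS716054, with a change of -0.44 (edgeR adjusted p 0.0181, SE 0.12).

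RAD50, the long coiled-coil ATPase of the break sensor, was at 7.00, 7.18 and 8.10 CPM in DMSO and 2.47, 5.27 and 2.37 CPM with GS716054. The groups did not overlap, and the log2 fold change was -1.21 (edgeR adjusted p 0.0115, SE 0.30) with the block and -1.15 (edgeR adjusted p 0.0677, SE 0.34) without it. This row is uncertain, because 76.9% of the RAD50 exon length in GENCODE v44 is shared with another gene on the same strand, and reads in shared exons are left out by unique counting. The ninth call was BRCA1, at a change of -0.37 (edgeR adjusted p 0.031, SE 0.11). With the block, 5 members were called without replicate 1, 17 without replicate 2 and 4 without replicate 3, where 1295 to 4233 of all genes were called. Without replicate 2, 16 were lower and H2AX was higher. BRCA2, MDC1 and POLQ were called each time. Without a block, the 6 libraries alone gave 0 called members and 101 called genes. At this time 8 of 27 S phase genes and 9 of 20 mitosis genes were called lower with the block, and their part in the repair gene result was not tested.

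In JEKO 0 members were called at 24 h and 5 were lower at 72 h with the block. At 24 h the members' median log2 fold change was -0.036, against -0.0062 over all genes. RAD51D, a recombination factor, was the only member with every treated library below every DMSO library (5.51% of genes did so), and PMS2, the MutLalpha endonuclease, the only one with every treated library above (7.03%). Neither was called, at edgeR adjusted p of 0.607 and 0.785 with the block. At 72 h the median was -0.097, against 0.0035 over all genes.

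At 72 h in JEKO, BRCA1 was at 23.9, 30.1 and 55.3 CPM in DMSO and 14.5, 24.7 and 35.1 CPM with GS716054. The groups overlapped, each pair was lower with GS716054, and the log2 fold change was -0.55 (SE 0.14) with an edgeR adjusted p just under the threshold before rounding (0.05). EXO1, the exonuclease of long-range end resection, was at 31.1, 65.7 and 70.5 CPM in DMSO and 19.4, 45.1 and 57.7 CPM with GS716054, with a change of -0.49 (edgeR adjusted p 0.0318, SE 0.11). RAD54L was at 25.6, 32.6 and 36.5 CPM in DMSO and 13.9, 22.9 and 30.4 CPM with GS716054, with a change of -0.54 (edgeR adjusted p 0.0462, SE 0.13). In these 3 genes, the DMSO and GS716054 libraries of replicate 1 were the lowest of their groups. FANCD2 was at 49.2, 45.2 and 63.8 CPM in DMSO and 30.6, 35.2 and 50.5 CPM with GS716054, with a change of -0.46 (edgeR adjusted p 0.0474, SE 0.11). MDC1 was at 48.7, 90.2 and 85.6 CPM in DMSO and 36.9, 61.5 and 68.2 CPM with GS716054, with a change of -0.42 (edgeR adjusted p 0.0394, SE 0.099). Without the block, adjusted p of the 5 genes ran from 0.5 (FANCD2) to 0.816 (EXO1). Leaving out replicate 1 or 3 gave 0 called members with the block, and leaving out replicate 2 gave 1 (BRCA1). Over all genes these fits called 35 to 476. RAD52 was the only member without overlap at 72 h, every treated library lying above (6.51% of genes), and 0 members had every treated library below (4.81%). Of the 27 S phase genes, 3 were called lower with the block, the licensing factor CDT1 the most at -1.09 (edgeR adjusted p 0.00277, SE 0.14), and their part in the result was not tested.

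In UPN-1 0 members were called at 24 h and 4 were lower at 72 h with the block. At 24 h the median log2 fold change was -0.035, against 0.00024 over all genes. MRE11, PMS2, XRCC3 and BLM showed no overlap with the treated libraries below (6.96% of genes), and RAD50 with the treated libraries above (7.82%), and 0 of these passed the test. At 72 h the median was -0.084, against -0.0024 over all genes. EXO1 was at 60.4, 46.7 and 66.8 CPM in DMSO and 45.6, 34.7 and 56.7 CPM with GS716054, with a log2 fold change of -0.34 (edgeR adjusted p 0.00692, SE 0.074) with the block. BLM was at 50.1, 57.3 and 69.6 CPM in DMSO and 43.9, 38.6 and 59.8 CPM with GS716054, with a change of -0.30 (edgeR adjusted p 0.0233, SE 0.08). FANCD2 was at 36.8, 38.2 and 58.7 CPM in DMSO and 32.8, 27.2 and 43.5 CPM with GS716054, with a change of -0.35 (edgeR adjusted p 0.0192, SE 0.089). In these 3 genes each pair was lower with GS716054 while the groups overlapped. H2AX, the histone variant phosphorylated around breaks, was at 104, 95.8 and 116 CPM in DMSO and 94.4, 70.5 and 95.1 CPM with GS716054. Its groups did not overlap, and the change was -0.27 (edgeR adjusted p 0.0176, SE 0.069). CHEK2 was the other member without overlap (3.79% of genes were lower in this way), and its change of -0.21 (edgeR adjusted p 0.113, SE 0.079) did not pass. Without the block, adjusted p of the 4 genes ran from 0.694 (H2AX) to 0.751 (FANCD2). With the block, 0 members were called without replicate 1, 1 (EXO1) without replicate 2 and 7 without replicate 3. Over all genes these fits called 197 to 1376. In the same comparison 9 of 27 S phase genes and 6 of 20 mitosis genes were called lower. The share of mitochondrial reads was 2.66%, 2.17% and 1.91% in DMSO and 3.77%, 3.24% and 2.15% with GS716054, higher in each pair, as it also was at 24 h. The part of these values in the result was not tested.

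The response was tested for a difference among the 3 lines in a fit of all 36 libraries. Without the block, 0 members were called at either time, where 0.106% of 17980 genes were called at 24 h and 1.01% at 72 h. At an unadjusted p under 0.05 the edgeR fit gave 3 members at 24 h and 1 at 72 h. Of all 17980 genes, 1326 and 2007 passed in the same way. DESeq2 called 0 members at both times. With the block, 3 members were called at 24 h (PRKDC, FANCA and MSH6, where 5.74% of genes were called) and 3 at 72 h (PRKDC, MDC1 and H2AX, where 9.78% were). The values below come from the fits of each line with the block.

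PRKDC at 24 h was at 309, 369 and 407 CPM in DMSO and 315, 418 and 381 CPM with GS716054 in JEKO. In UPN-1 it was at 912, 827 and 1047 CPM in DMSO and 989.9, 883 and 1222 CPM with GS716054, higher in each pair, and in MINO at 836, 654 and 791 CPM in DMSO and 695, 456 and 612 CPM with GS716054. The log2 fold changes in JEKO, MINO and UPN-1 were 0.023, -0.41 and 0.14, with an edgeR adjusted p of 0.0307 for the difference. At 72 h PRKDC was at 115, 186 and 226 CPM in DMSO and 144, 187 and 230.1 CPM with GS716054 in JEKO and at 714, 529.6 and 852 CPM in DMSO and 718, 574 and 911 CPM with GS716054 in UPN-1. The changes in JEKO, MINO and UPN-1 were 0.12, -0.44 and 0.09 (edgeR adjusted p 0.012), so at both times only the MINO pairs were lower in all 3 replicates.

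FANCA at 24 h was at 83.2, 69.6 and 67.4 CPM in DMSO and 63.6, 78.1 and 70.9 CPM with GS716054 in JEKO and at 85.8, 86.7 and 78.4 CPM in DMSO and 84.0, 87.4 and 88.5 CPM with GS716054 in UPN-1. The changes in JEKO, MINO and UPN-1 were -0.059, -0.61 and 0.045 (edgeR adjusted p 0.0479 for the difference). MSH6 at 24 h was at 346, 364 and 385 CPM in DMSO and 322, 375 and 370.4 CPM with GS716054 in JEKO and at 216, 190.1 and 210.0 CPM in DMSO and 223, 200.4 and 224 CPM with GS716054 in UPN-1. The changes were -0.05, -0.49 and 0.063 in JEKO, MINO and UPN-1 (edgeR adjusted p 0.0115). Both genes were thus lower in MINO at 24 h and near their DMSO level in the other lines.

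MDC1 at 72 h was at 91.3, 105 and 108 CPM in DMSO and 96.0, 104 and 126 CPM with GS716054 in UPN-1, where the groups overlapped. The changes in JEKO, MINO and UPN-1 were -0.42, -0.72 and 0.11, with an edgeR adjusted p of 0.000392 for the difference, the smallest of the members. H2AX at 72 h was at 88.3, 122 and 138 CPM in DMSO and 48.7, 98.4 and 127 CPM with GS716054 in JEKO and at 103, 70.9 and 124 CPM in DMSO and 152, 71.2 and 167 CPM with GS716054 in MINO. The changes in JEKO, MINO and UPN-1 were -0.42, 0.32 and -0.27 (edgeR adjusted p 0.00736 for the difference). The JEKO and MINO changes of H2AX did not pass on their own, at edgeR adjusted p of 0.135 and 0.0762. For the change of the response from 24 h to 72 h, 0 members were called in any line with or without the block, where 0%, 0.0133% and 0% of genes were called in JEKO, MINO and UPN-1 without it, and 0%, 0.679% and 0.0459% with it. At an unadjusted p under 0.05, edgeR gave 0 members in JEKO and MINO and 1 in UPN-1 without the block. Over all genes it gave 299, 755 and 232 in JEKO, MINO and UPN-1. DESeq2 called 0 members. With the block and without replicate 2, 4 members were called in MINO (ATM, EXO1, RAD50 and XRCC5). The MINO fits with the block that left out a replicate called 28 to 1021 genes in all.

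**Figure D3:**
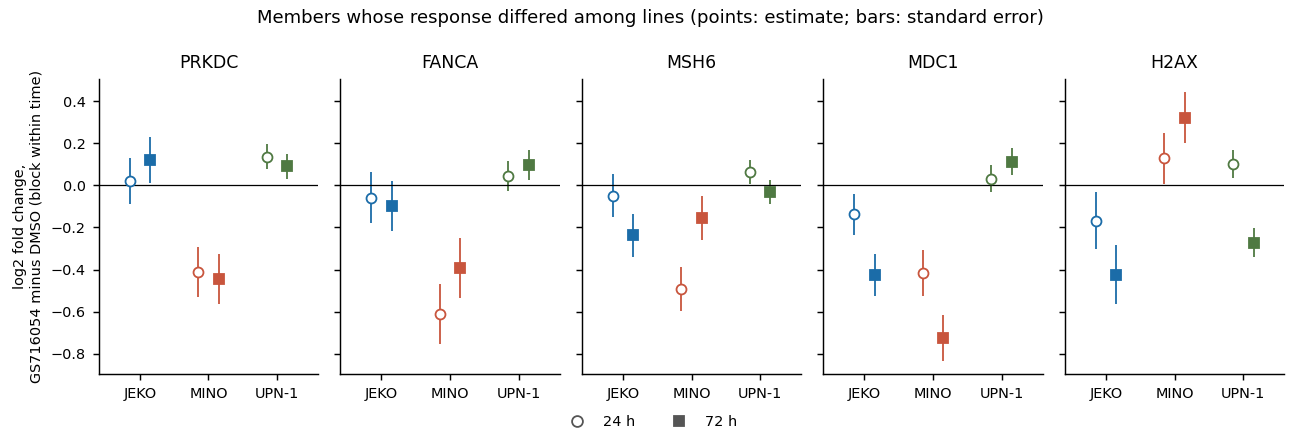
Log2 fold change between GS716054 and DMSO for PRKDC, FANCA, MSH6, MDC1 and H2AX in each line, from the edgeR fits with a replicate block within time; points are estimates, bars standard errors, open circles 24 h and filled squares 72 h. PRKDC lies at -0.41 and -0.44 in MINO and above 0 in JEKO and UPN-1, and H2AX at 72 h lies above 0 in MINO and below 0 in JEKO and UPN-1.

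Of 130 further repair genes in 9 lists, 127 were tested in MINO, and with the block 29 were called lower and 1 higher at 24 h, and 25 lower and 3 higher at 72 h, where 7.36% and 9.8% of all genes were called lower. The medians were -0.16 and -0.18, closer to 0 than those of the 38 members. At 24 h the calls lower were 5 of 21 other recombination genes, 4 of 14 other Fanconi anaemia genes, 1 of 11 other end joining genes, 5 of 12 other checkpoint genes, 3 of 15 other chromatin factors, 4 of 7 other mismatch repair genes, 5 of 17 base excision repair genes and 2 of 11 translesion synthesis genes. Of the nucleotide excision repair genes tested, 0 of 19 were called. RAD54B, a paralog of RAD54L, had a log2 fold change of -1.12 (edgeR adjusted p 0.0371, SE 0.34) with the block at 24 h and of -1.41 (edgeR adjusted p 0.0403, SE 0.36) without it at 72 h. HLTF, a ligase and translocase of damage tolerance, was called without the block at 72 h, at -0.82 (edgeR adjusted p 0.0194, SE 0.18). RIF1, which acts with TP53BP1 against end resection, was at -0.60 (edgeR adjusted p 0.00382, SE 0.12) with the block at 24 h, and TOPBP1, the activator of ATR, at -0.50 (edgeR adjusted p 0.00696, SE 0.11) at 72 h. At 24 h, 0 of 127 were called with the block in JEKO and in UPN-1, where 0.0899% and 1.5% of all genes were. In JEKO at 72 h, 6 of 127 were called lower and 0 higher, where 241 and 316 of all 16690 genes were. The 6 included RAD51AP1 at -0.66 (edgeR adjusted p 0.0129, SE 0.12). In UPN-1 at 72 h, 6 were lower and 2 higher, where 501 and 638 of all 15248 genes were. The lower ones included LIG3 at -0.28 (edgeR adjusted p 0.0144, SE 0.069).

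Targets of p53 that are induced by DNA damage went in both directions. In MINO without the block, 3 of 17 tested were called higher at 24 h, and 4 higher and 1 lower at 72 h; with it the counts were 6 higher and 1 lower, and 7 higher and 1 lower. Over all 15028 genes, 216 were called higher at 24 h and 527 at 72 h without the block, and 1267 and 1556 with it. TP53INP1, a stress-induced regulator of p53, had a log2 fold change of 2.11 (edgeR adjusted p 0.0146, SE 0.36) at 24 h and 1.69 (edgeR adjusted p 0.0146, SE 0.35) at 72 h, and BTG2, an antiproliferative gene, of 1.52 (edgeR adjusted p 0.00572, SE 0.20) and 1.27 (edgeR adjusted p 0.00418, SE 0.20). SESN2, a stress-response regulator of mTORC1, was lower at 72 h, at -0.84 (edgeR adjusted p 0.00741, SE 0.15). CDKN1A, the cyclin-dependent kinase inhibitor p21, was at 73.8, 67.0 and 74.9 CPM in DMSO and 110.3, 69.0 and 89.6 CPM with GS716054 in MINO at 24 h and was not called, at 0.26 (edgeR adjusted p 0.262, SE 0.15) with the block. In UPN-1 it was at 11.9, 9.96 and 8.28 CPM in DMSO and 21.1, 16.7 and 12.2 CPM with GS716054 at 24 h and at 29.6, 15.8 and 11.3 CPM in DMSO and 46.3, 27.6 and 25.9 CPM with GS716054 at 72 h. These changes passed with the block only, at 0.70 (edgeR adjusted p 0.00742, SE 0.13) and 0.88 (edgeR adjusted p 4.87e-05, SE 0.11). In JEKO the p21 change was 0.44 (edgeR adjusted p 0.222, SE 0.11) at 24 h and -0.41 (edgeR adjusted p 0.0589, SE 0.11) at 72 h with the block. Of the p53 targets as a list, the block called 0 in JEKO at 24 h and 2 higher at 72 h, and in UPN-1 1 higher and 1 lower of 16 at 24 h and 3 higher and 1 lower at 72 h. The same fits called 316 genes higher in all in JEKO at 72 h and 140 and 638 in UPN-1 at 24 h and 72 h.

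The KDM5 genes, whose products GS716054 inhibits, were measured as well. KDM5B was at 34.0, 56.6 and 35.1 CPM in DMSO and 61.9, 106 and 64.0 CPM with GS716054 in MINO at 24 h, higher in each pair, with a log2 fold change of 0.85 (edgeR adjusted p 0.000251, SE 0.11) with the block. At 72 h in MINO it was at 64.7, 270.4 and 67.2 CPM in DMSO and 64.8, 257 and 79.9 CPM with GS716054 and was not called, at 0.043 (edgeR adjusted p 0.804, SE 0.10). In JEKO it was at 14.1, 17.5 and 12.6 CPM in DMSO and 27.3, 28.2 and 17.8 CPM with GS716054 at 24 h and at 15.3, 53.7 and 25.2 CPM in DMSO and 35.2, 62.0 and 36.8 CPM with GS716054 at 72 h. Each JEKO pair was higher with GS716054, and the changes did not pass with the block, at 0.70 (edgeR adjusted p 0.218, SE 0.18) and 0.64 (edgeR adjusted p 0.0641, SE 0.17). UPN-1 passed at 72 h, with a change of 0.40 (edgeR adjusted p 0.00457, SE 0.084) in the same fit. KDM5A and KDM5C were called in 0 of the 6 comparisons in either fit, with log2 fold changes without the block from -0.097 (KDM5C, MINO at 72 h) to 0.32 (KDM5A, MINO at 24 h). KDM5D passed the filter in MINO only and was not called there, at -0.54 (edgeR adjusted p 0.0921, SE 0.20) at 24 h and -0.56 (edgeR adjusted p 0.0556, SE 0.19) at 72 h with the block.

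In DMSO at 24 h the lines differed in the members about as often as in all genes. Between MINO and JEKO, 15 of 38 members were called (5 higher and 10 lower in MINO), where 48% of 17980 genes were, 22% higher and 25.9% lower. Between UPN-1 and JEKO, 16 were called (11 higher and 5 lower in UPN-1, against 44.9% of genes, 21.2% higher and 23.8% lower), and between UPN-1 and MINO 18 (15 higher and 3 lower in UPN-1, against 44.4% of genes, 23.3% higher and 21.1% lower). Each line's libraries serve in 2 of these pairs. LIG4, the ligase of classical end joining, was at 20.7, 17.2 and 22.3 CPM in JEKO, 8.0, 6.68 and 8.19 CPM in MINO and 67.2, 56.3 and 53 CPM in UPN-1. No libraries of different lines overlapped, and the difference between UPN-1 and MINO was the largest of all members, at a log2 value of 2.95 (edgeR adjusted p 1.3e-10, SE 0.27). LIG4 differed by -1.40 (edgeR adjusted p 5.36e-05, SE 0.26) between MINO and JEKO and by 1.55 (edgeR adjusted p 5.26e-06, SE 0.25) between UPN-1 and JEKO.

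RNF8, the first ubiquitin ligase at the break, was at 86.6, 79.4 and 77.1 CPM in JEKO, 29.7, 27.3 and 24.0 CPM in MINO and 27.8, 32.3 and 28.8 CPM in UPN-1. It was higher in JEKO than in the other lines, with log2 differences of -1.59 (edgeR adjusted p 1.23e-11, SE 0.13) for MINO minus JEKO and -1.45 (edgeR adjusted p 9.45e-11, SE 0.13) for UPN-1 minus JEKO. RNF168, which extends the ubiquitin mark, was at 32.3, 31.0 and 29.4 CPM, 26.4, 23.9 and 28.7 CPM and 51.4, 58.8 and 56.8 CPM in the lines in the same order, and UPN-1 exceeded MINO by 1.08 (edgeR adjusted p 2.91e-07, SE 0.15). BARD1, the obligate partner of BRCA1, was at 32.6, 28.4 and 34.0 CPM, 41.7, 33.0 and 40.9 CPM and 103, 97.5 and 97.8 CPM. UPN-1 was above JEKO by 1.65 (edgeR adjusted p 4.6e-07, SE 0.23) and above MINO by 1.37 (edgeR adjusted p 8.2e-06, SE 0.23), while BRCA1 itself was called in 0 of the 3 pairs. XRCC6, the Ku70 subunit that binds DNA ends, was at 1284, 1348 and 1268 CPM, 511, 534 and 539.7 CPM and 1132, 1129 and 1072 CPM, and the log2 difference of MINO minus JEKO was -1.30 (edgeR adjusted p 7.94e-08, SE 0.16). The remaining calls ran from -1.12 (RAD52) to 1.07 (PRKDC) for MINO minus JEKO, from -1.34 (XRCC2) to 1.36 (PRKDC) for UPN-1 minus JEKO, and from -0.96 (RAD54L) to 1.07 (XRCC6) for UPN-1 minus MINO.

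Levels of different genes were compared as CPM per kb of GENCODE exon in the DMSO libraries at 24 h, and these levels depend on which exons a line uses. The length is the union of all annotated exons, 18399 bases for PARP1 and 27234 for ATR against 3244 for XRCC6. A transcript can be shorter than this union, so the order of genes given here also depends on the annotation. The Ku subunits were among the highest, XRCC6 at 401 ± 13.0, 163 ± 4.64 and 342 ± 10.5 in JEKO, MINO and UPN-1 (mean ± SD, n = 3), and XRCC5, the Ku80 subunit, at 99.5 ± 4.22, 117 ± 8.06 and 205 ± 6.56. H2AX followed at 113 ± 15.8, 98.0 ± 21.8 and 82.5 ± 7.66, and its mean ± SD overlapped that of XRCC5 in JEKO and MINO. PARP1, the break-sensing ADP-ribose polymerase, stood at 35.2 ± 1.75, 38.9 ± 4.26 and 50.1 ± 2.27. PRKDC stood at 12.4 ± 1.70 in JEKO, below MINO at 26.1 ± 3.24 and UPN-1 at 31.9 ± 3.83. Near the low end were ATR at 1.38 ± 0.106, 0.977 ± 0.0221 and 1.83 ± 0.11, and FANCM, the translocase of the core complex, at 0.904 ± 0.0795, 0.692 ± 0.0334 and 1.05 ± 0.166. RAD50 was the lowest tested member at 0.599 ± 0.142, 0.521 ± 0.0988 and 0.442 ± 0.0492, with the limit on its reads given above.

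**Figure D4:**
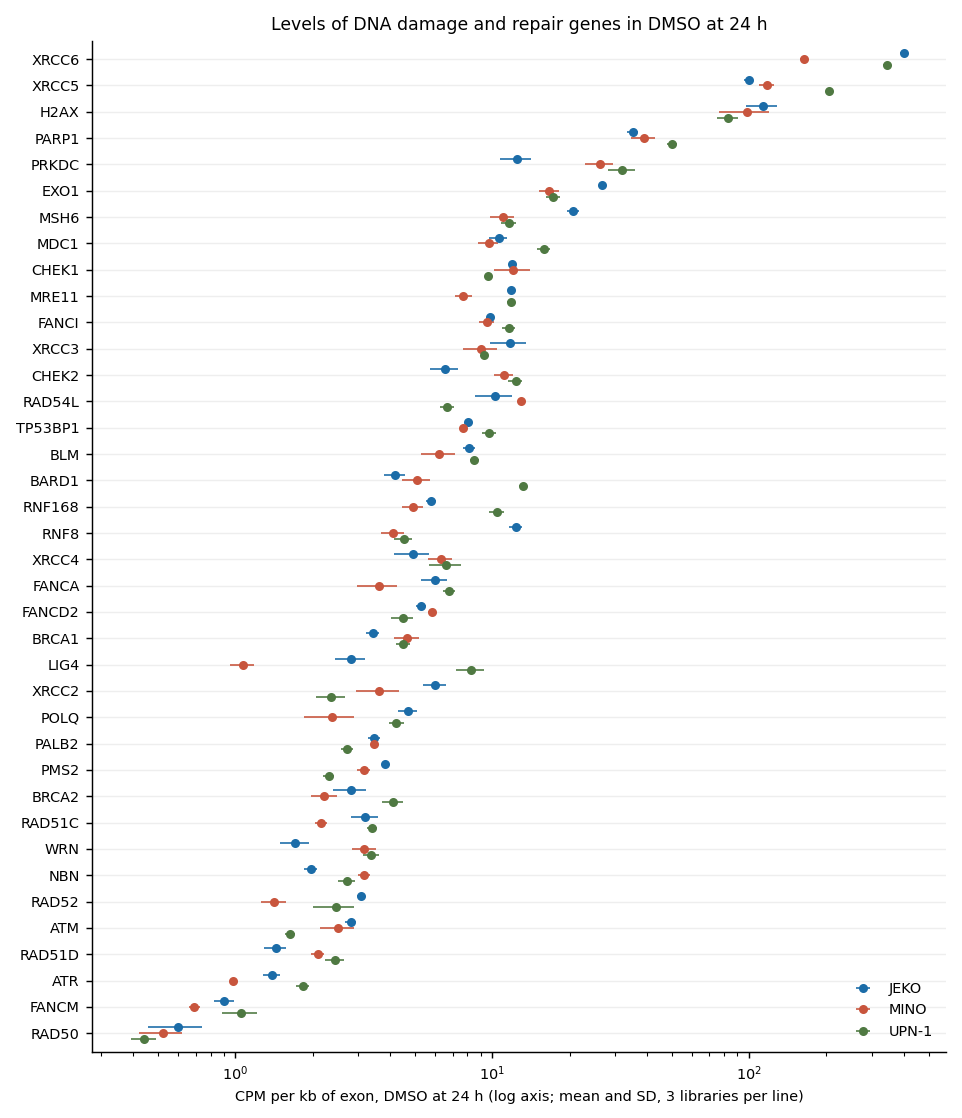
CPM per kb of exon (log axis) of 38 members in DMSO at 24 h, with points for the mean and bars for the SD of 3 libraries in JEKO, MINO and UPN-1; rows are ordered by the mean over lines. On this scale, which divides by the union of all annotated exons, XRCC6, XRCC5 and H2AX stand at the top and RAD50 at the bottom. LIG4 shows the widest gap between lines.

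Between 24 h and 72 h in DMSO, repair genes became lower in JEKO. In that line 14 of 38 members were called, 13 lower and 1 higher at 72 h, where 31.7% of genes were called, 14.6% lower and 17.1% higher. The median of the members was -0.37, against 0.047 over all genes. In MINO and UPN-1, 0 members were called (0.0932% and 1.47% of genes), with medians of -0.20 and -0.19. At an unadjusted p under 0.05 edgeR gave 7 and 10 members, where 3580 of 15028 and 3888 of 15248 genes passed. The DESeq2 test called 2 members in MINO and 0 in UPN-1, where 981 and 1026 genes were called. The S phase genes fell in JEKO with the members, 19 of 27 being called lower at a median of -1.0, as did 7 of 20 mitosis genes; their part in the result was not tested. The JEKO count was 6, 8 and 5 without the 24 h replicates 1, 2 and 3, and 7, 8 and 12 without the 72 h replicates 1, 2 and 3. ATR, PRKDC, XRCC5 and XRCC6 were called in each of these JEKO fits, and RAD52 and RNF8 in none. Over all genes the JEKO fits called 2717 to 4914. The UPN-1 count was 7 without replicate 3 of the 72 h DMSO libraries and 0 without any other, where 1 to 3084 genes were called.

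Of the 7 end joining genes, 4 were called in JEKO, all lower. XRCC5 was at 518, 552 and 561 CPM at 24 h and 158, 244 and 254 CPM at 72 h, a log2 fold change of -1.31 (edgeR adjusted p 0.00135, SE 0.22). XRCC6 was at 1284, 1348 and 1268 CPM and 620.1, 727 and 716 CPM, a change of -0.92 (edgeR adjusted p 0.00348, SE 0.19). PRKDC was at 309, 369 and 407 CPM and 115, 186 and 226 CPM, a change of -1.04 (edgeR adjusted p 0.00584, SE 0.24). In all 3 genes of this kinase complex every 72 h library lay below every 24 h library. PARP1 was at 622, 636 and 683 CPM and 284, 462 and 429.8 CPM, a change of -0.72 (edgeR adjusted p 0.0144, SE 0.20). In MINO and UPN-1 the estimates of XRCC5 were -0.54 and -0.43, and those of XRCC6 -0.54 and -0.40, and none of these 4 was called by edgeR without a block. DESeq2 called both genes in MINO, and edgeR with the replicate block called both in MINO and in UPN-1, as did the UPN-1 fit without replicate 3 of the 72 h DMSO libraries. The difference between lines was not tested.

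Among the recombination genes of JEKO, EXO1 was at 111, 112 and 108 CPM at 24 h and 31.1, 65.7 and 70.5 CPM at 72 h, a change of -0.99 (edgeR adjusted p 0.0313, SE 0.32). RAD51C, also a recombination factor, was at 46.9, 51.0 and 59.3 CPM and 33.4, 28.2 and 36.3 CPM, a change of -0.68 (edgeR adjusted p 0.0173, SE 0.19). BLM was at 66.3, 60.0 and 65.9 CPM and 36.7, 43.2 and 52.3 CPM, a change of -0.54 (edgeR adjusted p 0.0156, SE 0.15). These groups did not overlap. RAD51D was at 14.9, 15.7 and 18.0 CPM and 13.8, 9.09 and 11.5 CPM, a change of -0.50 (edgeR adjusted p 0.0464, SE 0.18). RAD52, an annealing factor, was the only member called higher, at 14.4, 14.0 and 13.4 CPM and 19.7, 19.7 and 17.9 CPM, a change of 0.46 (edgeR adjusted p 0.0447, SE 0.16).

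Of the kinases and sensors, CHEK1 was at 66.3, 67.2 and 67.8 CPM at 24 h and 23.2, 39.2 and 47.3 CPM at 72 h in JEKO, a change of -0.87 (edgeR adjusted p 0.0314, SE 0.28). ATR was at 36.6, 35.5 and 40.9 CPM and 25.7, 20.8 and 24.3 CPM, a change of -0.67 (edgeR adjusted p 0.00689, SE 0.16). NBN was at 40.4, 35.9 and 38.2 CPM and 23.1, 22.3 and 31.4 CPM, a change of -0.57 (edgeR adjusted p 0.0241, SE 0.18). All 3 were lower without overlap. FANCM was at 19.0, 16.5 and 16.2 CPM and 8.75, 11.7 and 13.4 CPM, a change of -0.61 (edgeR adjusted p 0.0202, SE 0.18), and RNF8 at 86.6, 79.4 and 77.1 CPM and 58.5, 64.3 and 63.2 CPM, a change of -0.39 (edgeR adjusted p 0.0349, SE 0.13). ATM had estimates above 0 in each line, at 0.41, 0.51 and 0.50 in JEKO, MINO and UPN-1, and was not called by edgeR without a block. It was called higher in UPN-1 with the replicate block, with no filter and without the 72 h DMSO replicate 3, and in JEKO at a minimum count of 50, in the 6 libraries alone and without the 72 h DMSO replicate 1.

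**Figure D5:**
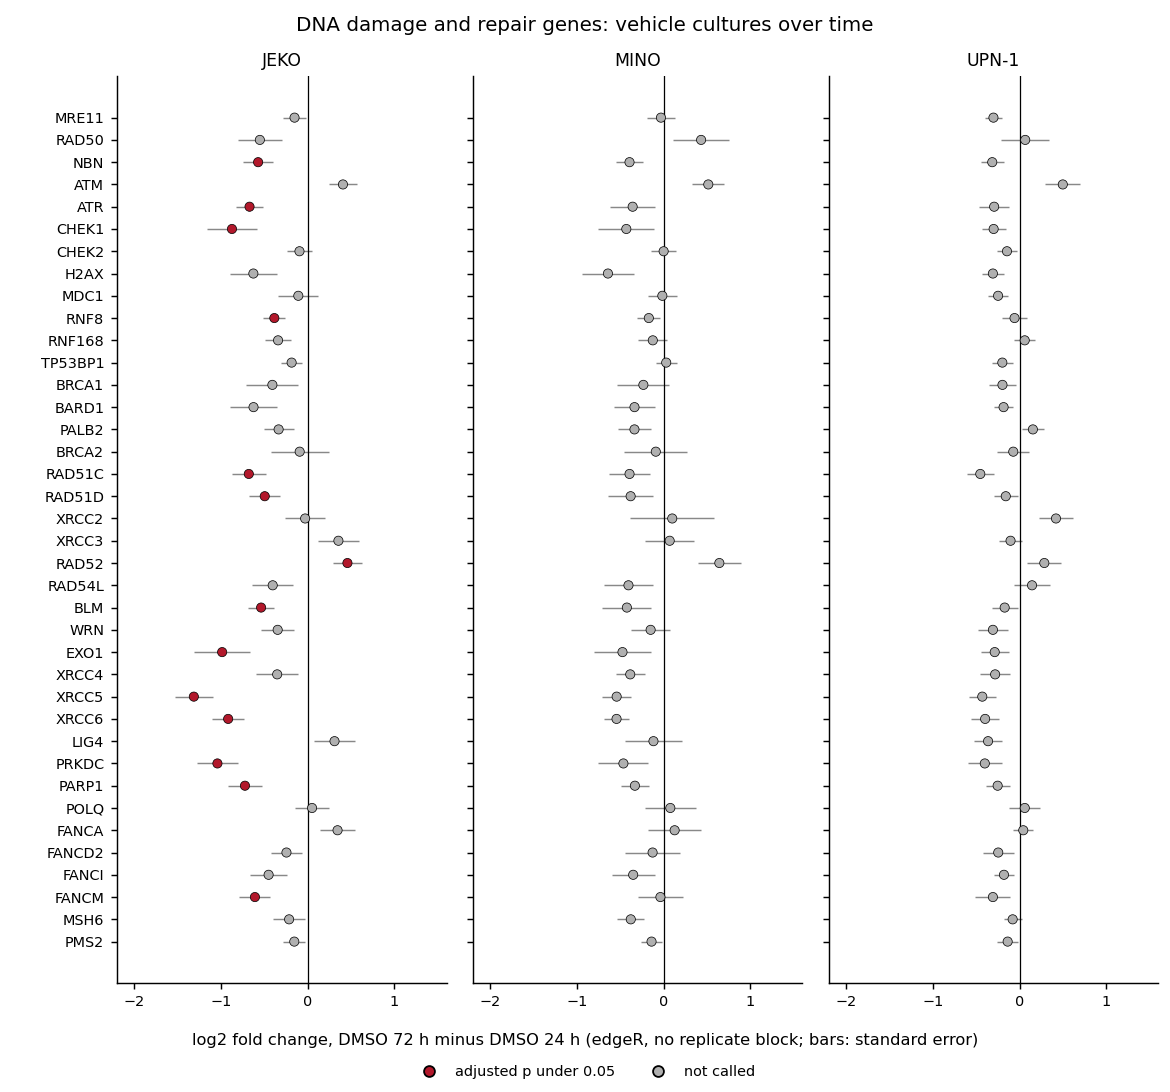
Log2 fold change of 38 members between DMSO cultures at 72 h and 24 h in each line; points are edgeR estimates without a block and bars standard errors. In JEKO 14 members are called, with XRCC5 lowest at -1.31 and RAD52 the only called member above 0, and in MINO and UPN-1 0 are called.

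Some counts are uncertain because exons of 2 genes overlap and the strand setting of the counting is not given in the sources used here. In GENCODE v44 the share of exon length that overlaps a gene on the opposite strand is 76.7% for XRCC3 (KLC1), 28.8% for TP53BP1 (TUBGCP4), 24.2% for MSH6 (FBXO11), 19.9% for RAD54L (LRRC41), 19.6% for FANCA (ZNF276) and 9.4% for MDC1 (MDC1-AS1). ATRIP shares 26.7% of its exon length with TREX1 on its own strand. PMS2 has near-identical pseudogene copies, so its reads can be split among them. Members that were called in no treatment comparison in either fit were ATM, ATR, MRE11, NBN and CHEK2 among the kinases and sensors, RNF8, RNF168 and TP53BP1 among the chromatin factors, and BARD1, RAD52, WRN and XRCC3 in recombination. In the other roles they were XRCC4, XRCC5, XRCC6, LIG4 and PARP1 of end joining, FANCI and FANCM, and PMS2. Their log2 fold changes without the block lay between -0.46 (FANCM, MINO at 72 h) and 0.26 (RAD52, UPN-1 at 72 h) over the 6 comparisons.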

How the data were processed

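RNA of 36 libraries (3 lines, 2 treatments, 2 times, 3 biological replicates) was analysed from the counts per gene that the authors deposited. Per the submitters' processing notes, tools named are HISAT2 2.2.1 and HTSeq 0.13.5 with the build GRCh38; the annotation release and the strand setting are not given in the sources used here. The 5 HTSeq summary lines were left out; reads in no feature were 43.3% to 45.9% of a library. IDs were named with GENCODE v44 (57532 of 58302). Groups and replicate numbers come from the labels.

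Each line's 12 libraries were fitted with edgeR 4.0.16 (R 4.3.3, limma 3.58.1; TMM scaling, filterByExpr at its default minimum count of 10 and minimum total of 15, quasi-likelihood F test, 8 residual degrees of freedom), and p-values were adjusted by Benjamini-Hochberg over all genes. Differences among lines were tested in 1 fit of all 36 libraries. A standard error is the fold change divided by the root of F. Same-numbered DMSO and GS716054 libraries of a time correlated at 0.107 to 0.593 in their deviations from the group means in 5 comparisons, and at 0.0552 to 0.213 in JEKO at 24 h; the labels do not say what a shared number means, and across times the correlations ran from -0.142 to 0.303. The block within each time leaves 4 residual degrees of freedom and was added after these correlations were seen. With 3 libraries a group, a p-value sets a difference against the estimated spread between these cultures. With the block, it uses the spread left after replicate effects are removed. CPM use TMM sizes of the 36-library fit, and CPM per kb the union of GENCODE exons. The fits were tested on counts simulated from the fitted models with known changes. Those changes were larger than most treatment changes of members given here, so calls of smaller changes were not tested in this way.

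Members with a call got full values (up to 8 a comparison and direction by p, the rest by range), as did the 3 largest DMSO differences of each pair of lines, calls among lines or between times, CDKN1A and the KDM5 genes; of each other list, up to 3 called genes could be named. The members, the lists (further repair genes, p53 targets, S phase and mitosis genes, markers of other cell types) and the tests were chosen with earlier results of these data known. Alternatives were DESeq2 1.42.0 and its size factors, no filter, a minimum count of 50, a replicate block, other sets of libraries and leaving out each library.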

Additional observations from a re-analysis of the deposited data

Results flagged for a closer look

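The response to GS716054 differed among the 3 lines in 6 tests of a member, each by the test of that difference itself in the edgeR fit with a replicate block within time. These were 3 of 38 members at each time, against 5.74% of all genes at 24 h and 9.78% at 72 h, so the count is near that of all genes. At 24 h these were MSH6 (adjusted p 0.0115), PRKDC (0.0307) and FANCA (0.0479), all lower in MINO. At 72 h they were MDC1 (edgeR adjusted p 0.000392), lower in MINO and JEKO, H2AX (0.00736), lower in UPN-1 and with an estimate above 0 in MINO, and PRKDC (0.012), lower in MINO. None of these passed without the block. What sets the lines apart was not tested.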

How the results depend on the processing

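No result reversed. Of the counts of called members under an alternative, 245 stayed within 1.5 times the count reported without a block and 43 moved. For MINO at 24 h (0 members), no filter, the DESeq2 test and a replicate block across times each gave 1, and the block within time and the 6 libraries alone gave 15. For MINO at 72 h (1 member), no filter gave 5, DESeq2 3, the block across times 3, the block within time 9, all 36 libraries 3 and the 6 libraries alone 0. The block within time gave 5 in JEKO and 4 in UPN-1 at 72 h, and 3 at each time for the difference among lines, where the main count was 0. Between DMSO at 72 h and 24 h, MINO had 1 with no filter, 2 with DESeq2 and 5 with the replicate block, and UPN-1 2 with no filter and 7 with the block. The 6 DMSO libraries alone gave 25 for MINO minus JEKO and 30 for UPN-1 minus JEKO. Leaving out replicates, fits with the block included, gave 0 to 15 in MINO at 24 h and 0 to 17 in MINO at 72 h. In JEKO and UPN-1 at 72 h it gave 0 to 1 and 0 to 7. Over all genes these fits called 27 to 2724 in MINO at 24 h and 358 to 4233 in MINO at 72 h. In JEKO and UPN-1 at 72 h they called 15 to 476 and 5 to 1376. For DMSO over time the member counts were 5 to 12, 0 to 0 and 0 to 7 in JEKO, MINO and UPN-1. Between lines they were 11 to 14, 15 to 17 and 14 to 18 (MINO minus JEKO, UPN-1 minus JEKO, UPN-1 minus MINO). For the change of the MINO response over time they were 0 to 4, and elsewhere 0 to 0. The difference among lines was refitted in this way without the block only, so its calls with the block were not tested by leaving out a replicate. Of the alternative values of single named members, 455 kept their side of the threshold, 101 passed it only under the alternative, and 5 lost it, all of them MDC1 in MINO at 72 h. Counts over all genes moved too: in the order JEKO, MINO, UPN-1 and 24 h before 72 h, they were 3, 50, 359, 835, 4 and 51 without a block, 31, 227, 936, 1557, 21 and 164 with DESeq2, 8, 113, 994, 1536, 12 and 223 with the block across times, 15, 557, 2373, 3029, 228 and 1139 with the block within time, 44, 355, 1053, 1492, 36 and 231 with no filter, and 7, 2, 2557, 101, 30 and 6 in the 6 libraries alone. For DMSO over time, the 14 genes of MINO and 224 of UPN-1 became 981 and 1026 with DESeq2, 1727 and 1845 with no filter, and 1819 and 2784 with the replicate block. For the difference among lines, the 19 genes at 24 h and 182 at 72 h became 209 and 452 with DESeq2, 266 and 580 with no filter, and 247 and 528 with the replicate block. The cause was not tested. No paired fit was made for DMSO between lines, whose cultures share only a number.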
